A study of Mus musculus with 4 samples.

Results

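Integrins and cadherins are the receptors with which dermal cells hold on to matrix and to each other, and their messenger RNA was measured in sorted embryonic mouse dermal cells. The genes were chosen by symbol: all Itga, Itgb and Cdh genes listed singly with status OK in 4 expression tables, without Cdh1 and Cdh5, the markers of epithelium and endothelium. This gave 44 genes, 25 integrins and 19 cadherins, of 19444 protein-coding genes measured in all tables. Cells came from embryos carrying an Axin2-LacZ reporter (Axin2 is induced by Wnt signalling and restrains it), whose activity was the basis of the sort. The foot skin was ventral and taken at E17.5, the back skin was dorsal and taken at E14.5, and each gave 1 library labelled Axin2-LacZ positive and 1 labelled negative. The 4 groups therefore hold 1 library each, no difference has a replicate check, and no test was possible. The sources used here do not give strain, litter, sex or pooling of embryos. Site and stage changed together and cannot be told apart.

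Levels are FPKM, fragment numbers corrected for transcript length and for mapped fragments in a library, printed as deposited with the authors' lower and upper bound in parentheses. The bounds cover counting and read assignment within a library only, and their confidence level is not stated in the files. The distance from the midpoint of the bounds to either bound was taken as a percentage of the value. Over coding genes of at least 5 FPKM, its median was 23.1% (labelled positive) and 14.1% (labelled negative) for foot. For back it was 9.0% and 9.90%, so foot values are the less precise. Of those genes 4.22% and 6.90% in the foot, then 9.92% and 8.77% in the back, had a value outside its own bounds. Such bounds were widened to the value before overlap was judged. Of the integrins and cadherins this held for Cdh23 in the back only. Axin2 itself read 9.65 FPKM (7.10–12.5) where the foot label was positive and 12.9 (10.2–15.3) where it was negative, with 4.49 (3.89–5.09) and 3.13 (2.63–3.64) for the back. After the rescaling described below, the log2 ratio of positive over negative was -0.15 ± 0.45 in the foot and 0.24 ± 0.25 in the back. Axin2 was thus not higher where the foot label was positive. In the back it was higher with the positive label, with bounds apart as deposited. The rescaled back ratio of 0.24 did not exceed the 0.25 that the bounds give, so this label too is only weakly borne out. Directions between sorted fractions follow the labels only, in both skins. The label "dermal cells" was borne out by fibroblast genes: 8 markers, among them Col3a1 and Pdgfra, summed to between 3070 and 7141 FPKM. Leukocyte genes (10 markers) summed to between 0.788 and 19.0 FPKM. Keratinocyte genes (7 of 10 markers could be read) summed to 7.68 and 1.02 FPKM in the foot and 48.3 and 25.6 in the back, in the order positive, negative.

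An integrin is a pair of 1 alpha and 1 beta chain in the membrane. Outside the cell it binds matrix such as fibronectin, vitronectin, collagen or laminin, and inside it is tied to actin by talin, kindlin and vinculin. Classical cadherins bind cadherins of a neighbouring cell and are tied to actin by beta-catenin and alpha-catenin. In developing skin the mesenchyme lies under an epithelium that carries its own set of both families, and the basal keratinocyte integrin of hemidesmosomes pairs Itga6 with Itgb4.

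Of the 44 genes, 11 reached a mean of at least 2 FPKM over the 4 libraries after rescaling, 8 integrins and 3 cadherins, and these are called measured. Another 8 reached 1 FPKM in some library, and 25 stayed under 1 FPKM in all 4. Cdh11, a type II classical cadherin of mesenchyme, had the highest mean. It stood at 70.8 FPKM (66.1–75.6) in the foot library labelled positive, 71.1 (68.3–74.6) in the foot negative, 50.8 (48.4–51.5) in the back positive and 33.6 (32.2–35.1) in the back negative. Both foot libraries lay above both back libraries, and the bounds of both foot values overlapped as deposited. The gene lies at chr8:105156895-105309011 (mm9, span of the deposited entry in the foot library labelled positive, as for the positions below).

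Itgav, the alpha chain of the vitronectin receptors, at chr2:83564554-83647073, was the highest integrin in the foot. It read 85.7 FPKM (69.0–103) with the positive and 66.9 (57.0–76.7) with the negative label in the foot, and 35.5 (31.2–39.8) and 18.4 (15.1–21.6) in the back. All 4 libraries differed in value in that order, and the bounds of foot and back did not meet. Itgb1, the beta chain shared by most matrix receptors, at chr8:131209554-131257100, was far more even, at 47.1 (43.0–51.4), 57.7 (54.9–61.0), 47.7 (46.6–49.9) and 35.2 (33.9–37.0) FPKM in the same order. Itgb5, a beta chain that pairs with Itgav, at chr16:33829751-33949301, stood at 13.6 (10.3–18.2) and 14.4 (12.4–16.8) in the foot and 6.39 (5.61–7.20) and 5.15 (4.44–6.01) in the back. Like Itgav, Itgb5 was higher in both foot libraries than in either back library.

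**Figure D1:**
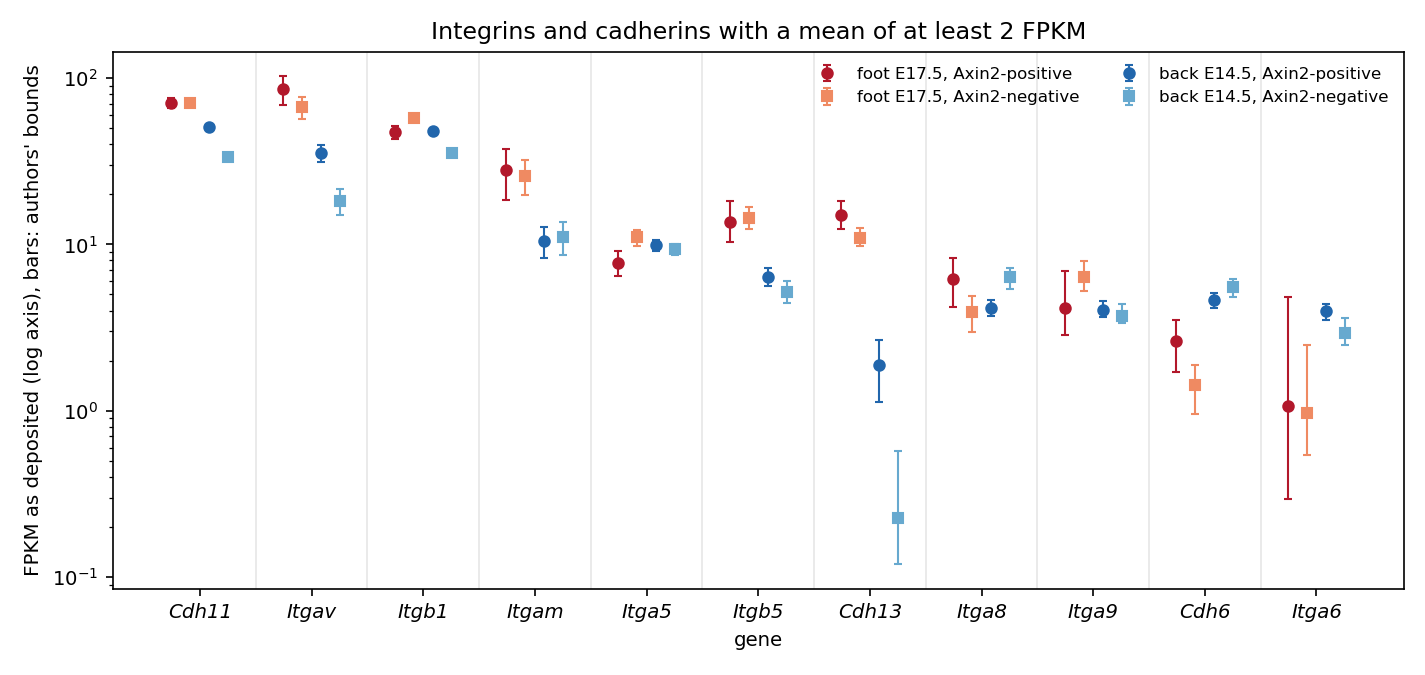
FPKM as deposited (log axis) of the 11 measured integrins and cadherins in each of the 4 libraries, with bars for the authors' bounds. By value, Cdh11, Itgav, the Itgam entry, Itgb5, Itga9 and Cdh13 have both foot libraries above both back libraries. Cdh6 and Itga6 have both below. For Itga9 and Itga6 some bounds of foot and back overlap.

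The other measured alpha chains were lower. Itga5, which with Itgb1 forms the classical fibronectin receptor, at chr15:103174720-103197194, stood at 7.76 FPKM (6.41–9.08) and 11.0 (9.75–12.1) in the foot and 9.95 (9.08–10.6) and 9.36 (8.64–10.1) in the back, labelled positive before negative. Itga8, another partner of Itgb1, whose ligands include nephronectin, at chr2:12028259-12223547, stood at 6.22 (4.21–8.23) and 3.92 (2.98–4.87) in the foot and 4.15 (3.71–4.63) and 6.36 (5.37–7.21) in the back. Itga9, which binds tenascin-C among others, at chr9:118515808-118810121, stood at 4.16 (2.84–6.91), 6.37 (5.28–7.93), 4.03 (3.67–4.59) and 3.70 (3.37–4.37) in the same order. The skins overlapped in Itga5 and Itga8 values. For Itga9 both foot values as deposited lay above both back values, with overlapping bounds between the libraries labelled positive.

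Itga6, a laminin-binding chain at chr2:71583673-71696473, stood at 1.07 FPKM (0.295–4.84) and 0.973 (0.544–2.47) in the foot and 3.95 (3.51–4.40) and 2.95 (2.47–3.61) in the back. The foot bounds are wide, and the one of the library labelled positive takes in both back values. Itgb4, its partner in keratinocyte hemidesmosomes, was listed at 0 in all 4 libraries, with upper bounds of up to 1.06 FPKM.

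Cdh13 and Cdh6 separated the skins in opposite directions. Cdh13, which encodes T-cadherin, a cadherin held by a lipid anchor and lacking the catenin-binding tail, lies at chr8:120807633-121848821. It stood at 14.9 FPKM (12.4–18.2) and 11.0 (9.79–12.6) in the foot, and at 1.89 (1.13–2.67) and 0.226 (0.119–0.569) in the back. The 4 bounds form a gap between foot and back, and the back libraries also lie apart from each other. Cdh6, a type II classical cadherin at chr15:12963955-13103394, stood at 2.62 (1.71–3.50) and 1.43 (0.954–1.88) in the foot and 4.63 (4.17–5.11) and 5.51 (4.81–6.22) in the back, so both back libraries were above both foot libraries.

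Itgam, the alpha chain of the leukocyte receptor Mac-1, came next after Itgav and Itgb1 among the integrins by mean level, at 27.8 FPKM (18.5–37.2) and 25.8 (19.8–32.0) in the foot and 10.5 (8.30–12.7) and 11.1 (8.66–13.6) in the back. Its obligate partner Itgb2 was listed at 0 in 3 libraries and stood at 0.0487 FPKM (0–0.368) in the back library labelled negative. The pan-leukocyte gene Ptprc was listed at 0 in both foot libraries and stood at 0.0395 and 0.0534 FPKM in the back. The deposited entry for Itgam, chr7:135206154-135271674, spans 65521 bases, whereas the gene spans 55852 bases in GENCODE vM21 on GRCm38. The excess of 9669 bases was the only one among the measured members: the other 10 entries were as long as their gene or shorter. In GENCODE vM21 a longer coding gene, Gm49368, starts 43 bases after Itgam and ends 9669 bases after it. A processed pseudogene of 347 bases, Gm45700, lies in that extra stretch. Reads of Itgam, Gm49368 and Gm45700 cannot be told apart in this entry, so its value is printed as that of the entry and carries no statement on Mac-1. Its neighbours in the same gene cluster, Itgax and Itgad, were listed at 0 in all 4 libraries and at no more than 0.0389 FPKM.

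Within a library the make-up of each chain family does not depend on scaling between libraries. Itgav made up 63.0% and 56.1% of the summed FPKM of 17 alpha chains in the foot, and 48.7% and 32.7% in the back, in the order positive, negative. Without the Itgam entry these shares were 79.2% and 71.6%, and 56.9% and 40.8%. Itga5 went the other way, from 5.70% and 9.24% in the foot to 13.7% and 16.7% in the back. Among 8 beta chains Itgb1 took 76.1% and 78.1% in the foot and 86.6% and 84.8% in the back, and Itgb5 took 22.0% and 19.5%, then 11.6% and 12.4%. Cdh11 was the main cadherin everywhere, at 79.8%, 83.9%, 80.3% and 77.3% of the summed FPKM of 19 cadherins. Cdh6 made up 2.95% and 1.68% in the foot and 7.31% and 12.7% in the back. The dominant gene of each family was thus the same in all 4 libraries, and the second place among cadherins passed from Cdh13 in the foot to Cdh6 in the back.

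**Figure D2:**
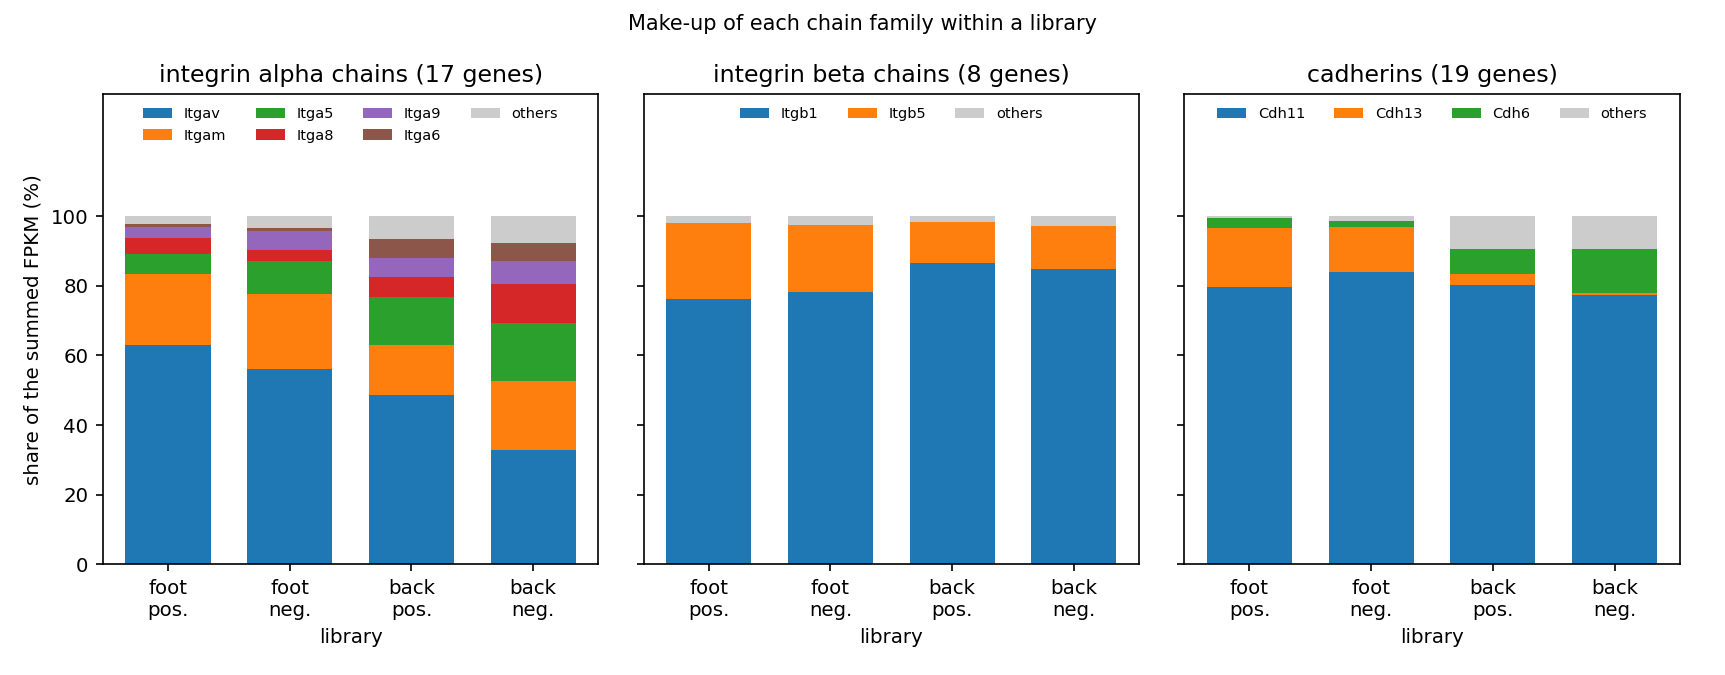
Share of the summed FPKM (%) that each gene takes among the integrin alpha chains, integrin beta chains and cadherins of each library. Itgav, Itgb1 and Cdh11 lead in every library, and the cadherin bars show Cdh13 in the foot and Cdh6 in the back.

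To compare libraries, FPKM were divided by median-ratio factors and the log2 ratio was taken after adding 1 FPKM, which understates changes of low genes. As deposited, the median of all tested genes lay at -0.19 for the sorted foot fractions, 0.20 for those of the back, 0.19 for foot over back with the positive label and 0.59 with the negative label. Ratios are given relative to these shifts. The value after ± combines the authors' bounds of both libraries and is no replicate error. A gene was called when its ratio was at least 1 in size, that is, at least 2-fold. Background shares are over 7554 coding genes with a mean of at least 2 FPKM. In such sorted bulk samples, fewer cells of a type and less RNA per cell cannot be told apart.

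The foot comparison was designed to set cells labelled Axin2-positive, as a sign of Wnt response, against their neighbours, though Axin2 transcript did not follow that label in the foot. None of the 11 measured members was called in either direction, against 9.60% of all tested genes higher, 9.09% lower and 18.7% either way. Bounds did not overlap after rescaling for 5 of 11, against 37.0% of all tested genes, and all 5 were higher in the library labelled positive. These were Itga8 (log2 ratio 0.74 ± 0.48), Cdh6 (0.70 ± 0.43), Cdh13 (0.64 ± 0.31), Itgav (0.60 ± 0.35) and Cdh11 (0.24 ± 0.11). As deposited the bounds of all 5 overlap, so the separation rests on the rescaling. The matrix receptor chain Itgb1 had a log2 ratio of -0.04 ± 0.15 and Itga5 one of -0.23 ± 0.26, both with overlapping bounds. As deposited these were -0.29 and -0.46 with bounds apart, so without rescaling the genes set apart were these 2, both lower. The median was 0.17 over the 8 integrins and 0.64 over the 3 cadherins, against 0.02 over all tested genes. As deposited, mast cell genes summed to 3.15 FPKM in the foot library labelled positive against 270.3 in the negative. Skeletal muscle genes (10 of 11 markers could be read) summed to 3.22 against 22.3. Schwann cell and leukocyte genes also summed lower with the positive label. Fibroblast genes summed higher, at 7141 against 6714, as did keratinocyte genes, at 7.68 against 1.02. The part of these cells in the foot ratios was not tested.

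The back comparison asks the same for the hair-bearing back. Cdh13 was the 1 member called, higher in the library labelled positive by a log2 ratio of 1.25 ± 0.51, and no member was called lower, against 3.38% of all tested genes higher, 3.01% lower and 6.38% either way. Cdh13 passed the floor through the foot libraries, both of its back values lie under 2 FPKM, and the call is lost when the larger value must reach 5 FPKM. With 11 members this count says little about the family. Bounds did not overlap for 6 of 11, against 37.1% of all tested genes. Higher in the library labelled positive were Cdh13, Itgav (log2 ratio 0.70 ± 0.30), Cdh11 (0.37 ± 0.07) and Itgb1 (0.21 ± 0.08). Lower were Itga8 (-0.72 ± 0.23) and Cdh6 (-0.41 ± 0.20). The bounds of Cdh6 overlap as deposited. The median was 0.00 over the integrins and 0.37 over the cadherins, against 0.01 over all tested genes. Fibroblast genes summed higher in the back library labelled positive as well, at 4355 against 3070 FPKM as deposited and 4738 against 3898 rescaled. So did keratinocyte genes, at 48.3 against 25.6 as deposited. Leukocyte genes summed lower as deposited, at 3.67 against 19.0, and so did mast cell genes, at 25.4 against 88.6. Their part in these ratios was not tested.

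**Figure D3:**
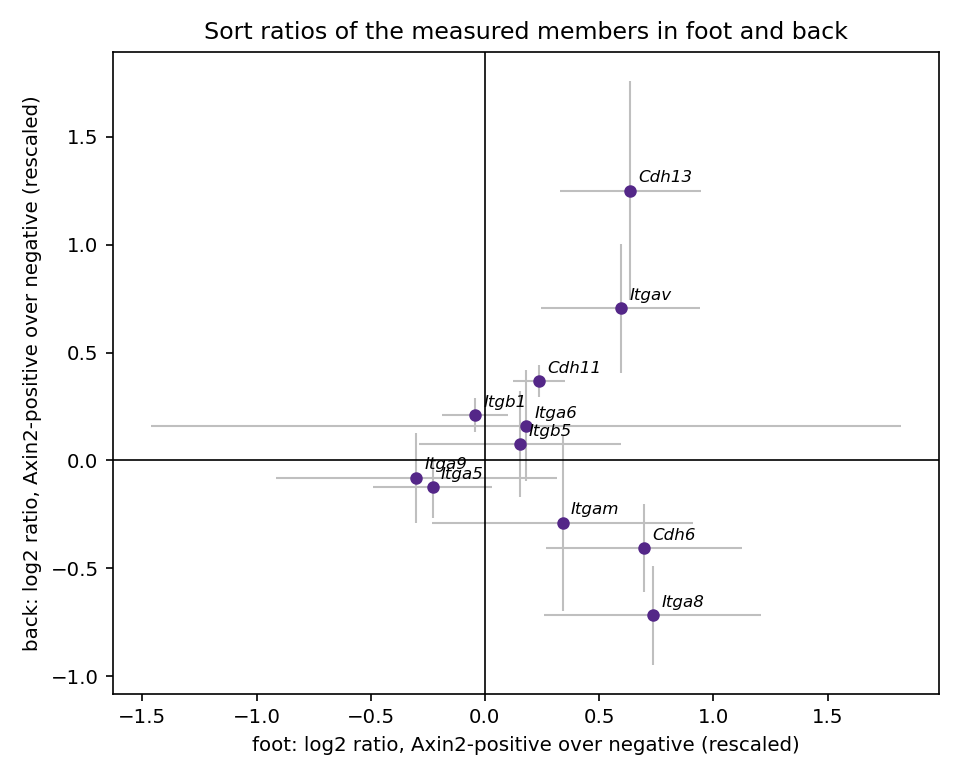
Log2 ratio of the library labelled Axin2-positive over negative in the foot (x axis) and the back (y axis) for the 11 measured members, after rescaling, with bars for the combined bounds. Cdh13, Itgav and Cdh11 lie to the upper right (Cdh11 in the foot at -0.01 as deposited), and Itga8 and Cdh6 to the lower right.

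Set side by side, Itgav, Cdh13 and Cdh11 were higher in the library labelled positive of both skins, and Itga8 and Cdh6 were higher in it for the foot but lower for the back. Subtracting the back ratio from the foot ratio gave 1.45 ± 0.53 for Itga8 and 1.10 ± 0.47 for Cdh6. It was -0.11 ± 0.46 for Itgav, -0.13 ± 0.14 for Cdh11, -0.61 ± 0.59 for Cdh13 and -0.25 ± 0.17 for Itgb1. These differences take the sign of the foot ratio from labels that Axin2 transcript does not bear out. With the foot labels turned, an alternative chosen after seeing the data, they would be -0.02 for Itga8, -0.29 for Cdh6, -1.30 for Itgav, -0.60 for Cdh11 and -1.89 for Cdh13, so which genes differ between the skins depends on those labels. The bounds of Itga8 in the foot also overlap with upper-quartile factors, and Cdh11 in the foot stood at -0.01 as deposited. The differences were not tested.

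Foot was then set against back, once for each label, to ask how the dermal cells of these skins differ. Between the libraries labelled positive, 3 measured members were called higher in the foot, against 13.7% of all tested genes, and 1 was called lower, against 14.4%, or 28.1% either way. The 3 were Cdh13 (log2 ratio 2.28 ± 0.47), the Itgam entry (1.11 ± 0.54) and Itgav (1.02 ± 0.33), and the 1 was Itga6 (-1.41 ± 1.53), whose bounds overlap. Between the libraries labelled negative, 2 were called higher in the foot, against 12.6% of all tested genes, and 3 lower, against 12.8%, or 25.5% either way. Higher were Cdh13 (2.89 ± 0.36) and Itgav (1.13 ± 0.32). Lower were Cdh6 (-1.92 ± 0.29), Itga6 (-1.43 ± 0.65) and Itga8 (-1.16 ± 0.32). As deposited, 5 were called higher and 2 lower for this label, so the split depends on the rescaling. Itga8 is the gene whose call ends as deposited, at -0.58. Cdh13 passed the floor through the foot libraries, where it was high, and Itga6 through the back libraries. Cdh6 also lay under 2 FPKM in the foot library labelled negative. The floor thus favours a difference in these genes, and their calls are given as description only.

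Cdh13, Itgav and Itgb5 stood higher in the foot for both labels with bounds apart, Itgb5 short of 2-fold at 0.77 ± 0.42 and 0.69 ± 0.28 for positive and negative. Cdh11 was higher by a smaller amount, 0.24 ± 0.10 and 0.37 ± 0.09. As deposited, both pass 2-fold with the negative label, Itgb5 at 1.32 and Cdh11 at 1.06. Cdh6 was lower for both, with -0.82 ± 0.37 for the positive label. Itga5 was lower for both, at -0.53 ± 0.24 and -0.42 ± 0.17, though as deposited its ratio for the negative label was 0.21. Itgb1 had ratios of -0.24 ± 0.13 and 0.01 ± 0.10, and 0.70 as deposited for the negative label. Bounds did not overlap for 8 of 11 members with either label, against 52.2% of all tested genes for the positive and 59.8% for the negative label. Keratinocyte genes had lower sums in the foot than in the back, as given above, with Epcam, Trp63, Cdh1 and Dsp listed at 0 in both foot libraries, and Itga6, which keratinocytes also use, moved with them. Endothelial genes (9 of 10 markers could be read) summed to 59.8 and 77.1 FPKM in the foot and 38.6 and 22.0 in the back. Most of this was Cd34, at 58.8 and 76.6 FPKM in the foot and 30.7 and 15.4 in the back. Pecam1, Cdh5, Tie1, Emcn, Cldn5 and Esam were instead listed at 0 in both foot libraries and had values in both back libraries. Kdr and Tek had values in every library. The part of either cell type in the Itga6 difference was not tested.

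**Figure D4:**
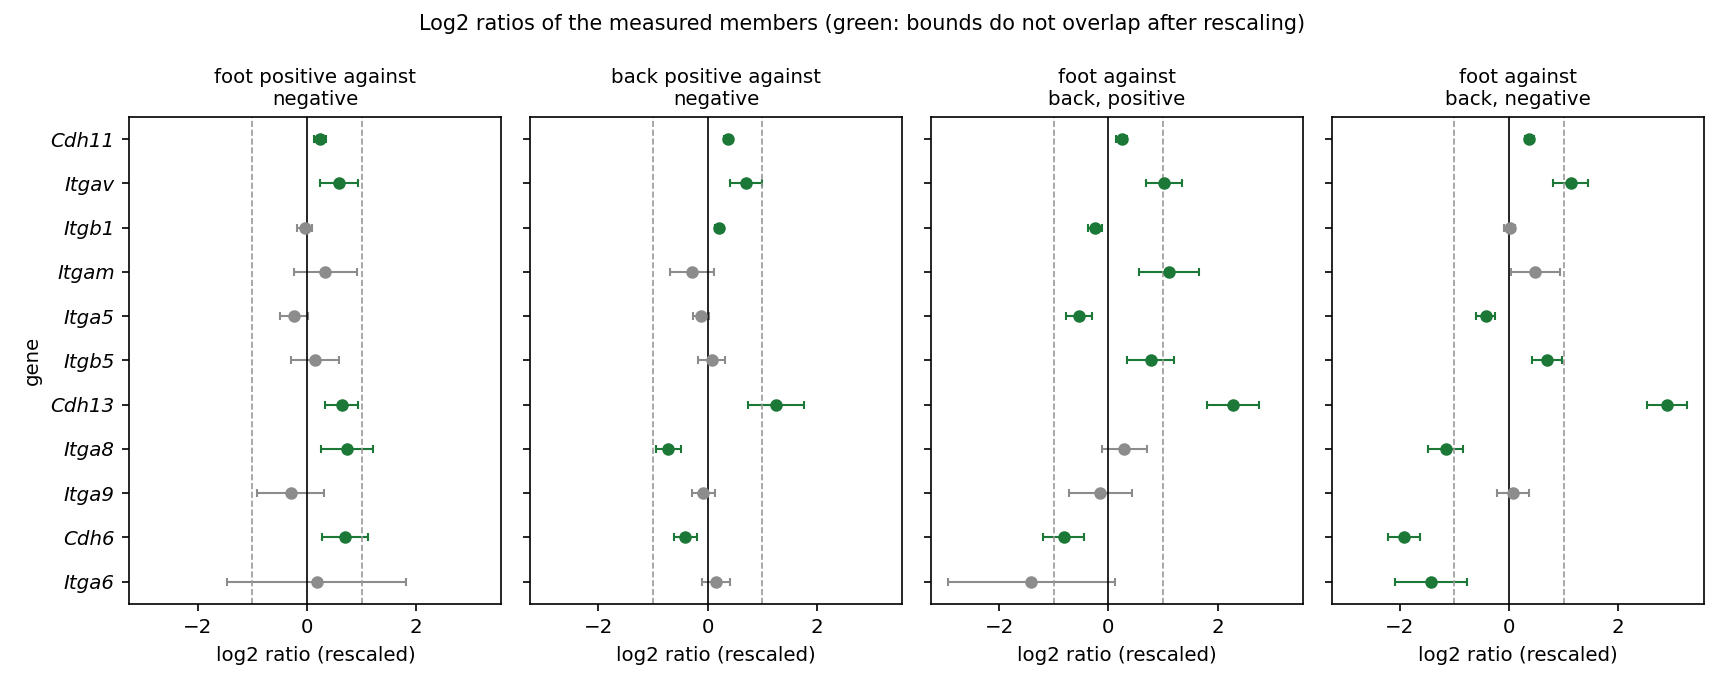
Rescaled log2 ratios of the 11 measured members in the 4 comparisons, with bars for the combined bounds and dashed lines at 2-fold. Green points have bounds that do not overlap. Cdh13 and Itgav pass 2-fold in both foot against back panels, and in the foot positive against negative panel no point does.

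Promoter sequences of 4 members are shown because these genes stand for the patterns above: Itgav is higher in the foot, Itgb1 is near even, and Cdh6 and the collagen receptor chain Itga11 are higher in the back. Each runs from 250 bases before to 50 after the start of transcription in RefSeq (GRCm38.p6, a later build than the mm9 of the tables), read along the gene. RefSeq windows were found for 29 of 44 members, and for 8 of the 11 measured ones. The windows are chr2:83724147-83724446 (plus strand) for Itgav, chr8:128685404-128685703 (plus) for Itgb1, chr15:13173626-13173925 (minus) for Cdh6 and chr9:62677605-62677904 (plus) for Itga11. Capitals mark the GC box GGGCGG, on either strand.
Itgav: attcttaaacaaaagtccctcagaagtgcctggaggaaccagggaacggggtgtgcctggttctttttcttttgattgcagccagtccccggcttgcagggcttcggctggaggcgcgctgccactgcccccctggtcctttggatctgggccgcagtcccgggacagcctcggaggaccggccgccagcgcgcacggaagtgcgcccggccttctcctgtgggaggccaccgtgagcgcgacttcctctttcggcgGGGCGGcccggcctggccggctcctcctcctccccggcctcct
Itgb1: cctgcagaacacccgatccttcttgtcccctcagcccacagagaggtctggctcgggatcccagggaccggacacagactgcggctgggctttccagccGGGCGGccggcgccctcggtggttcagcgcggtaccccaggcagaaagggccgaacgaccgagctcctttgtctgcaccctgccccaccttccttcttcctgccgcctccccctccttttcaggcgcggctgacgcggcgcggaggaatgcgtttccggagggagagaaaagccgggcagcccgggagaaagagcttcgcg
Cdh6: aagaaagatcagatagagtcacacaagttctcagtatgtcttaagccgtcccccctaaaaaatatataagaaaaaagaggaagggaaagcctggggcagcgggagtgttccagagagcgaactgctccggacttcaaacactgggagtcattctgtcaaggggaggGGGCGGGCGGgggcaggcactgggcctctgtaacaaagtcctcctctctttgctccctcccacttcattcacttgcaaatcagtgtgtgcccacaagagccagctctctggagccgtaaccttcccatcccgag
Itga11: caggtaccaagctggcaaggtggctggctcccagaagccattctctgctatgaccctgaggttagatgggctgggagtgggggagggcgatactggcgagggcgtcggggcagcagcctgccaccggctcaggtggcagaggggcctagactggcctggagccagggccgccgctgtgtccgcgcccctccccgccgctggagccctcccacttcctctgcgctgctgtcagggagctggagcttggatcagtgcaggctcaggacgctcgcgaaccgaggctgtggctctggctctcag
Itgav and Itgb1 hold 1 GC box each, Cdh6 holds 2 that overlap each other, and Itga11 has no match. Over all 32851 promoter windows of this length, 35.7% hold a GC box. The TCF/LEF core CTTTGA, searched on both strands, the sequence bound by the nuclear partners of beta-catenin, has no match in these 4 windows and is found in 16.0% of all windows. The TATA box (TATAAA, both strands) has none either and is found in 13.6%. A match or its absence describes these letters in this window only.

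Below the floor of 2 FPKM, the 3 collagen-binding chains listed singly (Itga1, Itga2 and Itga11) were low in all libraries. Itga11, a fibroblast chain for fibrillar collagen, was listed at 0 in the foot library labelled positive and stood at 0.101 FPKM (0–0.239) in the negative, against 1.46 (1.26–1.67) and 1.56 (1.34–1.77) in the back. Its bounds in the back lie above those in the foot. Itga1, which also binds collagen and whose locus overlaps the coding genes Gm49395 and Pelo on the same strand in GENCODE vM21, stood at 1.28 (0.846–1.70) and 0.734 (0.524–0.944) in the foot and 0.663 (0.477–0.894) and 0.863 (0.711–1.02) in the back. Itga2 reached no more than 0.256 FPKM. Itga4, a chain for fibronectin and Vcam1 whose locus overlaps Cerkl on the other strand, stood between 0.841 and 1.28 FPKM, and Itgb3, a beta chain for Itgav, between 0.634 and 1.21. Their bounds overlapped between neighbours in the order of levels.

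Of the cadherins under the floor that reached 1 FPKM, Cdh26 and Cdh3 were higher in both back libraries. Cdh2 was higher only in the back library labelled positive. Cdh26 was listed at 0 in both foot libraries and stood at 1.90 FPKM (1.41–2.38) and 1.26 (0.850–1.86) in the back, labelled positive before negative. Cdh3, the P-cadherin of the basal epidermis and hair placode, was listed at 0 and stood at 0.184 (0.0459–0.321) in the foot, against 1.12 (0.939–1.32) and 0.571 (0.419–0.714) in the back. Cdh2, the N-cadherin of mesenchyme and nerve, stood at 0.409 (0.0651–0.756) and 0.653 (0.389–0.920) in the foot and 1.11 (0.937–1.29) and 0.511 (0.380–0.641) in the back. Cdh2 and Cdh3 shared their high library, the back one labelled positive, and in it their bounds as deposited lie above those of the other 3 libraries. Cdh1, the keratinocyte cadherin, was also at 0.879 and 0.663 FPKM in the back and listed at 0 in the foot. The part of keratinocytes in the Cdh3 values was not tested. Cdh8, a type II cadherin, was listed at 0 in the foot and read 0.778 and 0.391 FPKM in the back.

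In all, 13 of 19 cadherins were listed at 0 in both foot libraries, and 11 of these 13 had a value in the back. Of 19444 coding genes 37.8% were listed at 0 in both foot libraries and 26.8% in both back libraries. Among the 7358 coding genes at 0 in both foot libraries, 2489 had a value in the back. Of 25 integrins 5 were listed at 0 in both foot libraries, and 2 of these had a value in the back. The foot libraries are the less precise. The part of depth in these zeros was not tested. Cdh16 and Cdh17, cadherins of kidney and gut epithelium, were listed at 0 in all 4 libraries, as were the epithelial chain Itgb6 and the leukocyte chain Itgax. The remaining cadherins (Cdh7, Cdh9, Cdh10, Cdh12, Cdh18, Cdh19, Cdh20, Cdh22, Cdh23 and Cdh24) stayed at or under 0.601 FPKM.

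**Figure D5:**
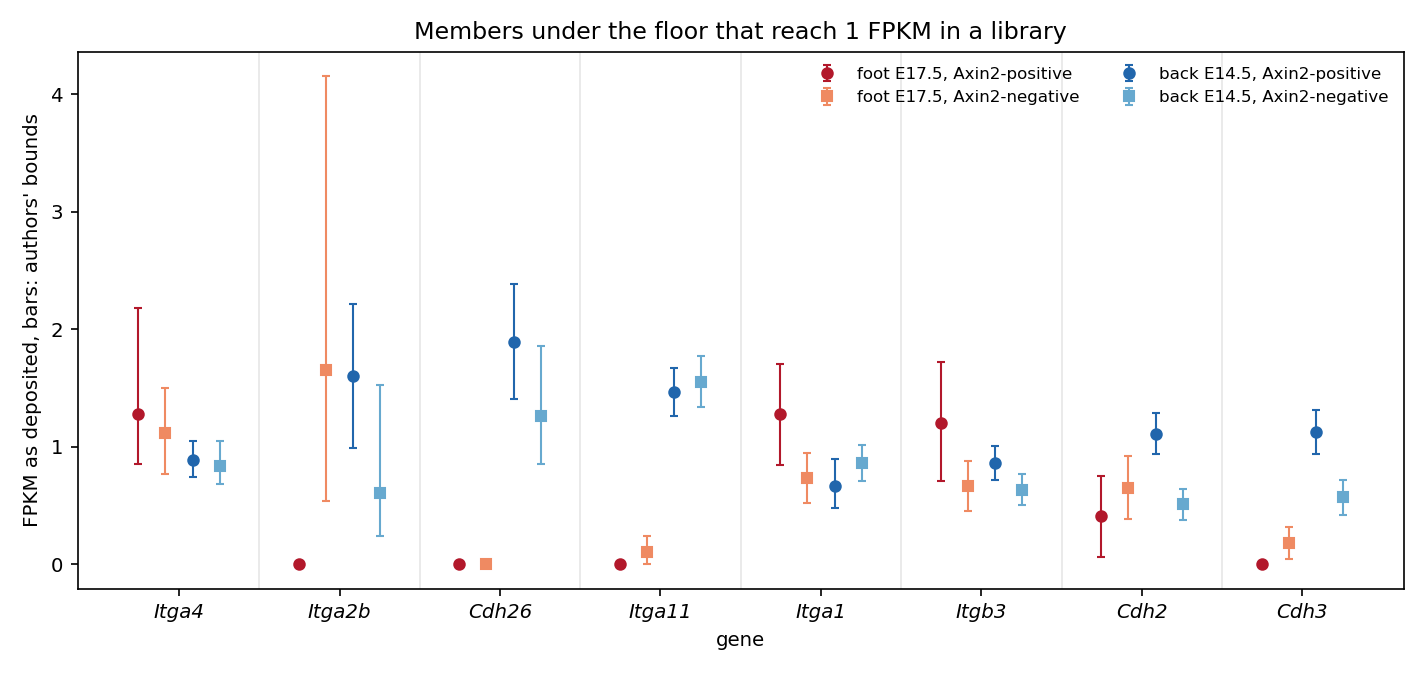
FPKM as deposited, on a linear axis, of the 8 members under the floor that reached 1 FPKM in some library, with bars for the authors' bounds. Itga11, Cdh26 and Cdh3 are at or near 0 in the foot and above it in both back libraries.

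Chains of blood cells were low apart from the Itgam entry. Itga2b, the platelet chain that mast cells also carry, was listed at 0 in the foot library labelled positive and stood at 1.65 FPKM (0.535–4.15) in the foot negative, 1.60 (0.991–2.22) in the back positive and 0.611 (0.240–1.53) in the back negative. Itgb7, a beta chain of lymphocytes and mast cells, was listed at 0, then stood at 0.979 (0.405–1.64), 0.0352 (0–0.225) and 0.454 (0.211–0.697). Mast cell markers (8 genes, among them Cpa3 and Cma1) summed to 3.15, 270.3, 25.4 and 88.6 FPKM in that order, so Itgb7 was highest where they were highest. Platelet markers (7 of 8 could be read) summed to 0, 0.884, 1.06 and 7.64 FPKM. The part of these cells in both chains was not tested. Itgal, Itgad and Itgae reached no more than 0.450 FPKM. Itga3 and Itga7, laminin-binding chains, and Itgb8 stayed at or under 0.318 FPKM.

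Partners inside the cell were read from lists of adhesion proteins. Of 26 integrin adhesion genes 24 were found and 19 measured. In the foot against back comparison of the libraries labelled positive, 7 of 19 were called lower in the foot, Vcl among them, and none higher, against 14.4% of all tested genes lower and 13.7% higher, with a median log2 ratio of -0.45 against -0.01 over all tested genes. With the negative label 3 were called lower and none higher, a share lower that is near the 12.8% of all tested genes. The median was -0.70, against -0.01 over all tested genes. It is after rescaling, as are all list ratios here and below. As deposited, the median of all tested genes with this label was 0.59, so the size of these values rests on the rescaling. Zyx, which encodes zyxin, had log2 ratios of -1.85 ± 0.31 and -0.99 ± 0.20, and Parva, which encodes a parvin, -1.34 ± 0.29 and -1.89 ± 0.16, for positive and negative. Vcl, the gene of vinculin, was listed at 0 in the foot library labelled positive and stood at 4.83 FPKM in the foot negative and 10.4 and 11.3 in the back. Ilk, the integrin-linked kinase gene, was the highest of the list at 68.2, 122.1, 72.7 and 56.8 FPKM. Between sorted foot fractions 2 were called higher and 1 lower, against 9.60% and 9.09% of all tested genes. In the back 1 was called higher, against 3.38%, namely Tln2 (1.30 ± 0.16), which encodes a talin. For 19 genes these counts are near those shares.

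Of 10 catenin genes 9 were found and 6 measured. Ctnnb1, the gene of beta-catenin, which both cadherin junctions and Wnt signalling use, stood at 115.0, 117.7, 82.5 and 73.6 FPKM. Its rescaled log2 ratios stayed between -0.06 and 0.24 in the 4 comparisons. Ctnna1, an alpha-catenin, stood at 13.7, 16.6, 14.1 and 8.78 FPKM. Ctnna2, an alpha-catenin best known from the nervous system, was listed at 0 in both foot libraries and stood at 4.17 and 5.49 FPKM in the back.

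Matrix and counter-receptor ligands did not share 1 direction. The list also holds ligands, such as collagens, of chains under the floor. Of 31 ligand genes 22 were measured. Between the libraries labelled positive 5 were called higher and 7 lower in the foot than in the back, against 13.7% and 14.4% of all tested genes. Between those labelled negative the counts were 7 and 6, against 12.6% and 12.8%. Postn, the gene of periostin, which binds Itgav receptors, stood at 783.7 and 686.8 FPKM in the foot and 94.6 and 45.6 in the back, with log2 ratios of 2.81 ± 0.08 and 3.19 ± 0.09. Tnc, a ligand of Itga9, had log2 ratios of 0.91 ± 0.21 and 1.04 ± 0.16. Npnt, the nephronectin gene, lay under the floor and had 1.33 ± 0.44 and 1.07 ± 0.39. Fn1, the fibronectin gene, ligand of Itga5, Itga8 and Itgav receptors, read 198.8 and 23.9 FPKM in the foot and 259.7 and 103.4 in the back. It was called higher with the positive label in both skins, by log2 ratios of 3.24 ± 0.11 and 1.10 ± 0.07. Cyr61, which also binds Itgav receptors, was lower in the foot than in the back, with foot over back log2 ratios of -4.11 ± 0.35 (positive label) and -3.70 ± 0.16 (negative label).

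Other adhesion receptors were read from a list of 23 genes, of which 16 were measured. Between the libraries labelled positive 3 were called higher and 8 lower in the foot, against 13.7% and 14.4% of all tested genes. Between those labelled negative 3 were higher and 2 lower, near the 12.6% and 12.8% of all tested genes. Cd44, the hyaluronan receptor, was higher in the foot for both labels, at 1.55 ± 0.19 and 1.28 ± 0.16. Pvrl2, a nectin of cell junctions, was lower for both, at -2.79 ± 0.46 and -1.92 ± 0.25. Vcam1, a counter-receptor of Itga4, was lower at -1.06 ± 0.11 and -0.99 ± 0.09.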

How the data were processed

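Dermal cells were freed with collagenase (1000 U/ml) plus hyaluronidase (at 300 U/ml), sorted and profiled by mRNA sequencing, per the labels' protocols. The authors made the deposited FPKM values by running TopHat and Cufflinks, with mm9 as the build, per the submitters' processing notes. The sources used here do not give versions, settings, annotation release or use of strand. FPKM are not counts, and read totals per library were not used here.

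Entries with the same symbol were summed. Units named in all 4 tables with status OK were kept, and coding status came from GENCODE vM21 and RefSeq by symbol or gene ID. Entries without a gene name were left out, as were entries that join a gene of these families to a neighbour. One such result is not reported here. Median-ratio factors came from 3384 coding genes of at least 5 FPKM in all 4 libraries and were 1.08, 1.28, 0.919 and 0.787 (foot positive, foot negative, back positive, back negative). Ratios used a pseudocount of 1 FPKM, a floor of 2 FPKM for the mean over the 4 libraries and a 2-fold call. Locus starts were moved to 1-based positions. Genes named are all members past the floor, those reaching 1 FPKM in any library or listed at 0 in all 4, and the most changed and highest list genes. Tnc, Npnt, Zyx and Cd44 were picked out after values were seen. The members and lists were chosen with earlier results of these data known. Scripts ran in Python 3.11.15 with pandas 2.3.3, and the scaling and calling were tested on simulated data.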

Additional observations from a re-analysis of the deposited data

Results flagged for a closer look

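Itga8 and Cdh6 moved in opposite ways between sorted fractions of the skins, with bounds apart in both after rescaling, which is what drew attention to them. Subtracting the back from the foot log2 ratio gave 1.45 for Itga8 and 1.10 for Cdh6. The foot direction rests on labels that Axin2 transcript does not follow: with the foot labels turned, the differences would be -0.02 and -0.29, and both genes would be lower with the positive label in both skins. In the foot the bounds of both overlap as deposited, as do those of Itga8 with upper-quartile factors, and in the back those of Cdh6 overlap as deposited. The difference was not tested, since each group holds 1 library.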

How the results depend on the processing

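No paired analysis was possible because each group holds 1 library, and no library could be left out for the same reason. Of 10 called member ratios 9 stayed called with FPKM as deposited and 10 with upper-quartile factors or a pseudocount of 0.1, and none of these changed sign. Of 44 member ratios 17 moved beyond their bounds as deposited, 4 with the smaller pseudocount and 0 with upper-quartile factors. Counts of called members moved as follows. In the foot, 1 was higher with a pseudocount of 0.1 and 1 lower with no floor, against 0 each. In the back, 0 were higher when the larger FPKM had to reach 5, against 1. For foot against back with the positive label, the 1 lower became 2 with a pseudocount of 0.1, 5 with no floor, and 0 with a mean of at least 5 FPKM, with a larger FPKM of at least 5, or with bounds apart as well. With the negative label, the 2 higher became 5 as deposited, and the 3 lower became 5 with no floor and 1 with a mean of at least 5 FPKM. As deposited, the median of cadherins was 0.58 in the back, and for foot against back with the negative label it was 1.06, with 0.67 for integrins. Leaving out Itgam, chosen after seeing the data, took the 3 higher for the positive label to 2 and moved the integrin median there from 0.07 to -0.15. Other counts and medians kept within 1.5 times, or within the bounds. The cause was not tested, apart from the shift that rescaling removes. The wide foot bounds limit genes of a few FPKM.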

Other observations

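The entry that joins Cdh4 with Gm10711 read 0.366 and 1.28 FPKM in the foot (labelled positive, then negative), and 0.408 and 0.191 in the back. The genes joined in it cannot be told apart.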
